A study of Mus musculus with 24 samples.

Results

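Translation initiation factors are the proteins that bring the small ribosomal subunit to an mRNA, find the start codon and join the large subunit. Their genes were taken here as every row of the deposited expression table whose mouse gene symbol begins with Eif and a digit, which also takes in the eIF2 kinases (Eif2ak) and the eIF4E binding proteins (Eif4ebp). This gave 53 genes of 16921, spread over 19 chromosomes, and all 53 passed the filter on low counts that left 15165 genes for testing. Eif4ebp3 was not analysed here. RNA of the kidney cortex came from 24 male mice of the C57BL6/J background aged 22 months. KO mice lack FGF21, a hormone whose blood level rises when dietary protein is scarce, and WT mice have it. Each genotype ate either a low protein diet (LP, 5% casein protein) or a normal protein diet (NP, 20%), given freely from 3 months of age. The groups were thus KO_LP, KO_NP, WT_LP and WT_NP, with 6 mice and 6 libraries in each, and the number after a group name only names a library. Fgf21 was not analysed here, so the KO label was not checked on its own transcript, and the labels do not say how the allele was made.

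Initiation starts when eIF2, loaded with GTP and the initiator tRNA, joins the small subunit with eIF1, eIF1A, eIF3 and eIF5. The eIF4F complex, made of the cap binding protein eIF4E, the scaffold eIF4G and the RNA helicase eIF4A, brings that assembly to the capped end of an mRNA. Shortage of amino acids acts on this step by 2 known routes. The kinase GCN2, encoded by Eif2ak4, phosphorylates eIF2, which then blocks its exchange factor eIF2B. Low activity of the kinase complex mTORC1 leaves the 4E-BP proteins free to hold eIF4E away from eIF4G. Both routes act mainly on proteins, and the values here are transcript levels.

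The promoters of 5 genes are shown because they carry the contrasts described below. Eif4a1 and Eif4a2 encode closely related helicases, and Eif2s3x and Eif2s3y are the X and Y copies of 1 eIF2 subunit. Eif2ak2 encodes PKR, an interferon-induced kinase. These genes and the motifs were chosen after their values were seen. Each window runs from 250 bases before to 50 bases after the RefSeq gene start on GRCm38.p6, 5′ to 3′ along the gene, and capitals mark the motif matches listed after the sequences. RefSeq windows matched 43 of the 53 genes.
Eif4a1 (chr11:69672374-69672673, minus strand): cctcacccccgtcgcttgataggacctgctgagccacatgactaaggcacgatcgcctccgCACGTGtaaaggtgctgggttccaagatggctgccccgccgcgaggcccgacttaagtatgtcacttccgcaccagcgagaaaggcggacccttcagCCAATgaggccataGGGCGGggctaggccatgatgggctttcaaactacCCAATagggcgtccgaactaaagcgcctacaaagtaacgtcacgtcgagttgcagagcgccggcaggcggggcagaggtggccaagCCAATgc
Eif4a2 (chr16:23107218-23107517, plus strand): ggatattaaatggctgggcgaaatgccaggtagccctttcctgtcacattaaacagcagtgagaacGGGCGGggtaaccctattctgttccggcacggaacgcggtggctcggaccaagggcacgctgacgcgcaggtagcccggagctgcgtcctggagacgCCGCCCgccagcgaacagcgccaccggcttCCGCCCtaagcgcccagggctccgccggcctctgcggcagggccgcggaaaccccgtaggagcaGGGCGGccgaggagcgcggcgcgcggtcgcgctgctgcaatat
Eif2s3x (chrX:94212602-94212901, minus strand): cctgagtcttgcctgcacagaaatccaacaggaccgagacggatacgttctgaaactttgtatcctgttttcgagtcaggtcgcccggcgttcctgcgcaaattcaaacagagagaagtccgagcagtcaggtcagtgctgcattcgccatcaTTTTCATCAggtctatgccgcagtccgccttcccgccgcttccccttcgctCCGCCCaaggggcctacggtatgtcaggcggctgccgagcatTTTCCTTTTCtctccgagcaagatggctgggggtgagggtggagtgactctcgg
Eif2s3y (chrY:1010345-1010644, plus strand): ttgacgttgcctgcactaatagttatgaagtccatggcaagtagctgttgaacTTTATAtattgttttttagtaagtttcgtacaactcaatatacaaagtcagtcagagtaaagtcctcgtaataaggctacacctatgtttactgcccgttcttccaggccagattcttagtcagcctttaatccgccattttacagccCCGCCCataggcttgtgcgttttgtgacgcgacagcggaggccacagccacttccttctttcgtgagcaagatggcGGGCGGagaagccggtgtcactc
Eif2ak2 (chr17:78882523-78882822, minus strand): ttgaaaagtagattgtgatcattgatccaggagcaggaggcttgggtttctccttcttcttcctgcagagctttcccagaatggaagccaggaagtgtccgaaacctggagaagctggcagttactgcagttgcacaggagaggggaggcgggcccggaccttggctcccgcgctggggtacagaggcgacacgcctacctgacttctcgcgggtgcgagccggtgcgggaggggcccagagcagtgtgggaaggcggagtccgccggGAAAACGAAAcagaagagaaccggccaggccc

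Motifs were searched as exact letters on both strands, and a match is a description of the sequence only. For initiation factor genes only the first window per gene was used. The share over all windows counts every RefSeq window, whether or not its gene was tested here. The 2 shares thus rest on unlike sets, and their difference is not read as a result. The GC box (GGGCGG) stood in 74.4% of the 43 initiation factor windows and in 35.7% of all 32851 RefSeq windows of this length. The E box (CACGTG) stood in 18.6% of the initiation factor windows and 7.15% of all windows, and the CCAAT box (CCAAT) in 30.2% and 37.4%. Eif4a1 held 1 E box, 1 GC box and 3 CCAAT boxes, whereas Eif4a2 held 4 GC boxes and none of the other 2 motifs. The TATA box (TATAAA, 13.6% of all windows) matched Eif2s3y once and Eif2s3x not at all. The interferon stimulated response element (3.44% of all windows) matched Eif2ak2 and Eif2s3x among the 5 genes shown. The C/EBP-ATF response element (TGATGNAAN, 3.95% of all windows), the type of site that ATF4 binds, matched 1 of the 43 windows, that of Eif2s3x. The ETS site (CCGGAAGT) stood in 16.3% of the initiation factor windows and 3.89% of all windows, and the cAMP response element (TGACGTCA) in 0% and 1.79%.

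Library totals ran from 8469102 to 21063652 counts. Markers of proximal tubule, the main cell type of cortex, were all detected, with summed levels of 4689 to 9643 CPM (counts scaled to a common library size) in KO_LP, 9867 to 11896 in KO_NP, 7331 to 12974 in WT_LP and 6939 to 11276 in WT_NP. Several KO_LP libraries, WT_LP 3 and WT_NP 1 stood apart. The 14 macrophage and dendritic cell markers summed to 1539 to 5023 CPM in KO_LP, 1095 to 1484 in KO_NP, 1098 to 2755 in WT_LP and 1081 to 3606 in WT_NP, where WT_NP 1 was the highest library. The 10 markers of tubular injury summed to 1155 to 3625 CPM in KO_LP, 637 to 1082 in KO_NP, 685 to 3035 in WT_LP and 607 to 2337 in WT_NP, with KO_LP 6, WT_LP 3 and WT_NP 1 the highest of their groups. None of these markers was at 0 in all libraries of a group. In bulk tissue, fewer cells of a type and less RNA per cell cannot be told apart.

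Transcript levels of the initiation machinery varied little across diets and genotypes. Their summed level was 4654 to 5582 CPM in KO_LP, 4947 to 5220 in KO_NP, 4899 to 5272 in WT_LP and 4848 to 5489 in WT_NP, and the 4 ranges overlapped. For 41 of the 53 genes the highest and the lowest of the 4 group means lay within 1.2-fold of each other. The share of all genes that did so is not given here. Mice differed little as well. The median biological coefficient of variation, the spread between mice beyond counting error, was 10.6% over the 53 genes, beside 13.1% over all 10450 genes that averaged 5 CPM or more. Of the 53 genes 51 averaged that much. The median level was 58.0 CPM over the 53 genes, beside 12.9 over all genes tested, and the spreads were not matched on level.

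Genes were called where the p adjusted over all genes tested lay under 0.05 (edgeR quasi-likelihood test, two-sided). For LP against NP in KO mice, 0 of the 53 genes were called, beside 7.17% of all genes tested (3.59% higher and 3.58% lower). The same count was 0 for LP against NP in WT mice, where 0% of all genes were called, and 0 for the difference between those diet effects, also with a background of 0%. For KO against WT on NP 0 were called, beside 0.574% of all genes (0.343% higher and 0.231% lower). For KO against WT on LP 1 was called, Eif4a1, which makes 1.89% of the 53, beside 2.93% of all genes (1.35% higher and 1.59% lower). At an unadjusted p under 0.05 the counts in the same order were 9, 2, 5, 5 and 9 genes, or 17%, 3.77%, 9.43%, 9.43% and 17%, beside 27.9%, 3.82%, 16%, 12.6% and 21.1% of all genes. With DESeq2 the counts of calls in that order were 1, 0, 0, 0 and 1. The background rests on single libraries too. For diet in KO mice 1087 genes were called, and 122 without KO_NP 5, 136 without KO_LP 4 and 2006 without KO_LP 1. Between KO and WT on LP 445 were called, and 180 to 733 when each library was left out, lowest without WT_LP 1 and highest without WT_LP 3. Between KO and WT on NP 87 were called, and 52 to 151, lowest without KO_NP 1 and highest without KO_LP 6.

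**Figure D1:**
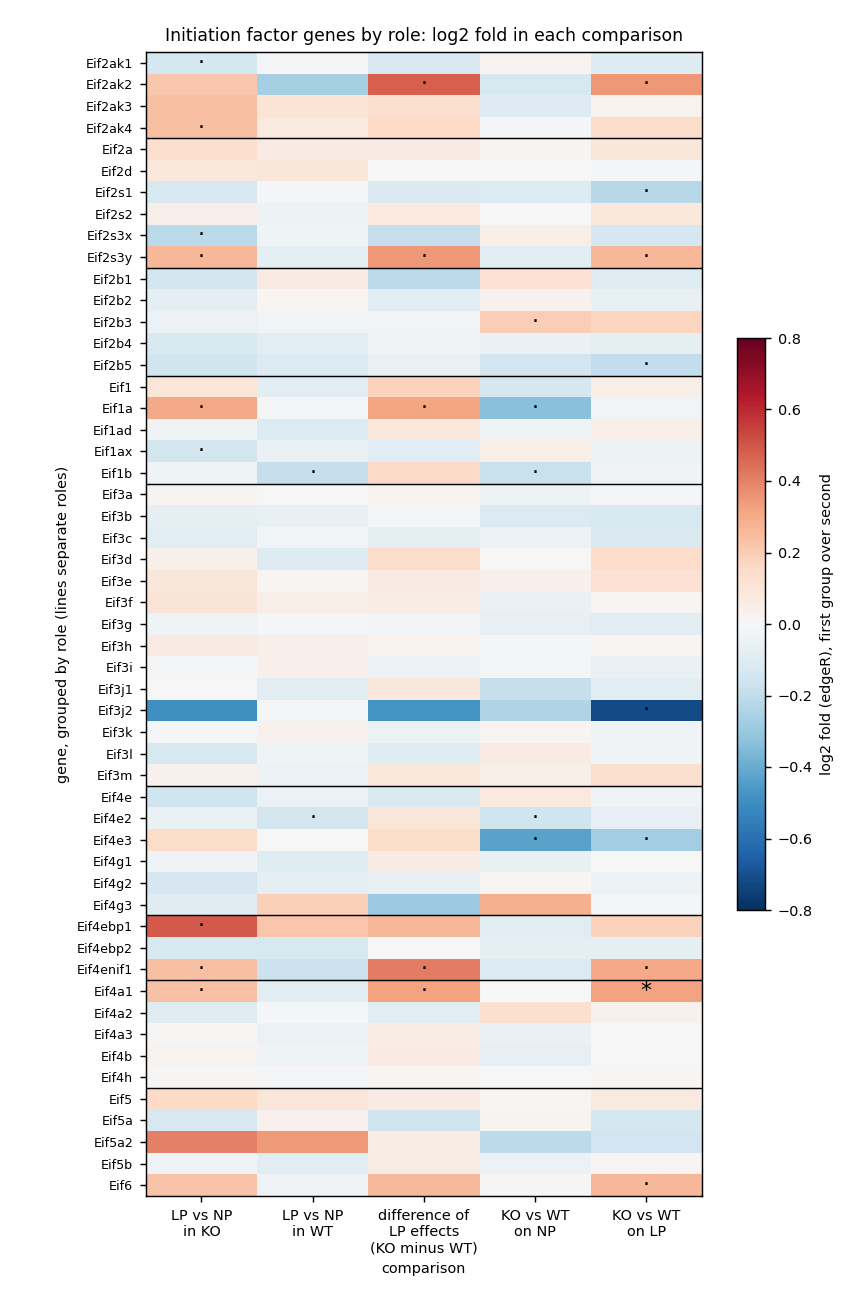
Log2 fold of each of the 53 genes (rows, grouped by role) in the 5 comparisons (columns), positive where the first group is higher. The star marks the single call, Eif4a1 for KO against WT on LP, and dots mark an unadjusted p under 0.05; most cells are pale, and the darkest is Eif3j2, the gene with the fewest counts.

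The 95% interval of the log2 fold lay within 0.5 of 0 for 44 of 53 genes for diet in KO mice (66.6% of all genes with at least 5 CPM), for 47 for diet in WT mice (82.9%) and for 38 for the difference between those effects (50.5%). Between KO and WT it did so for 47 genes on NP (75.1%) and 44 on LP (71.5%). It lay within 1 of 0 for 51 genes for diet in KO mice (92.0% of all genes with at least 5 CPM). In WT mice it did so for all 53 (97.5%). The median log2 fold was -0.01 over the 53 genes and 0.03 over all genes for diet in KO mice, and -0.02 and -0.01 for diet in WT mice. Regardless of sign, the median change among genes with at least 5 CPM was 0.10 over 51 initiation factor genes and 0.15 over all 10450 for diet in KO mice. These shares and medians describe the genes, were not matched on level and were not tested.

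**Figure D2:**
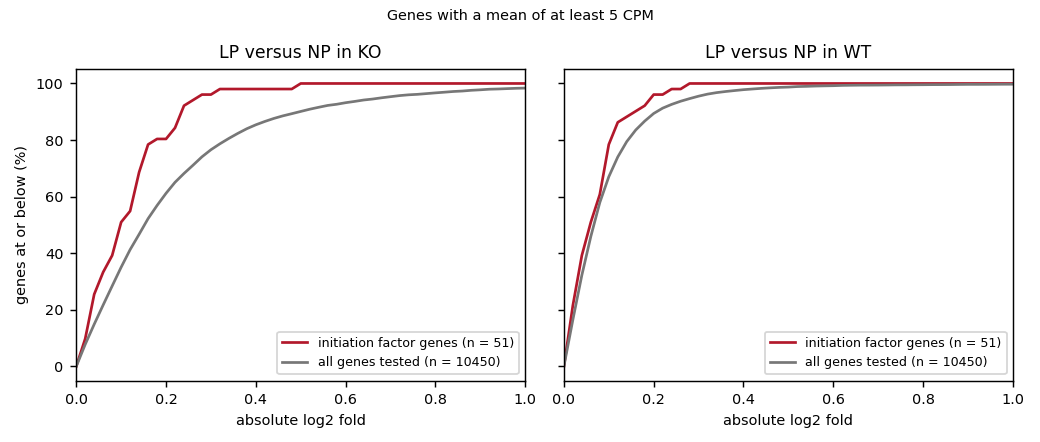
Cumulative share of genes (percent) by absolute log2 fold for LP against NP in KO mice (left) and in WT mice (right), for genes that averaged 5 CPM or more. The curve of the 51 initiation factor genes rises earlier than that of all 10450 genes for diet in KO mice, where the medians are 0.10 and 0.15.

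The helicase eIF4A unwinds the start of the mRNA. Of the initiation factor genes only Eif4a1 (chr11:69666936-69672423 on GRCm38, minus strand) was called. That call was for KO against WT on LP, where 2.93% of all genes were called. Its level spanned 56.1 to 87.7 CPM with a median of 63.3 in KO_LP, 51.3 to 63.1 with a median of 54.9 in KO_NP, 50.8 to 56.3 with a median of 52.6 in WT_LP, and 51.0 to 59.4 with a median of 56.8 in WT_NP. All 6 KO_LP libraries lay above the WT_LP mean, but the lowest of them lay just under the highest WT_LP library, and KO_LP 6 stood well above the rest. Against WT_LP the KO_LP level was 1.25-fold higher, with a log2 fold of 0.32 ± 0.08 (SE, edgeR adjusted p = 0.0340). Without KO_LP 6 the log2 fold was 0.23 and the call was lost (adjusted p = 0.0639). It was also lost without WT_LP 1 (0.0826), WT_LP 5 (0.0632) or WT_LP 6 (0.0705), and without WT_NP 1, KO_LP 4 and KO_LP 6 together, where the log2 fold was 0.24 (0.109). In a fit of the compared libraries alone the adjusted p was 0.115, and limma on the deposited normalized values gave 0.0708.

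For diet in KO mice the log2 fold of Eif4a1 was 0.23 ± 0.08 (SE, edgeR adjusted p = 0.0760) and in WT mice it was -0.09, with a 95% interval of -0.26 to 0.08. In KO mice it was 0.14 without KO_LP 6 (edgeR adjusted p = 0.198), and it was called when only genes with at least 5 CPM were tested (0.0413). The difference between those diet effects was 0.32, with an interval of 0.08 to 0.56 (edgeR adjusted p = 0.228). Eif4a1 lies between genes on the same strand, with Cd68, a macrophage gene, 783 bases away on its 3′ side and Senp3 692 bases away on its 5′ side. Cd68 had 8.95 to 30.7 CPM in KO_LP and 5.07 to 18.9 in WT_LP, with its highest KO_LP value in library 4. Senp3 had 3.31 to 8.40 CPM in KO_LP and 3.85 to 8.86 in WT_LP. For KO against WT on LP 13 of the 14 macrophage markers had a log2 fold above 0, and 0 of them were called. KO_LP 6, the highest KO_LP library for Eif4a1, had the lowest macrophage marker sum of its group. With the average of immune cell markers added to the model, the log2 fold of Eif4a1 was 0.42 (edgeR adjusted p = 0.0120). All 10 injury markers had a log2 fold above 0 in that comparison, 0 of them called. The part of macrophage content, of reads from Cd68 and of injury in the Eif4a1 result was not tested.

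Eif4a2 encodes a closely related helicase. It had 33.8 to 58.8 CPM (median 51.2) in KO_LP and 32.9 to 59.5 (median 52.8) in WT_LP. Those ranges nearly coincided. Eif4a3, the helicase of the exon junction complex, and the cofactors Eif4b and Eif4h had group means within 1.04-fold, 1.05-fold and 1.01-fold. Of the 5 genes of this group, 4 were thus without a call in any comparison.

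**Figure D3:**
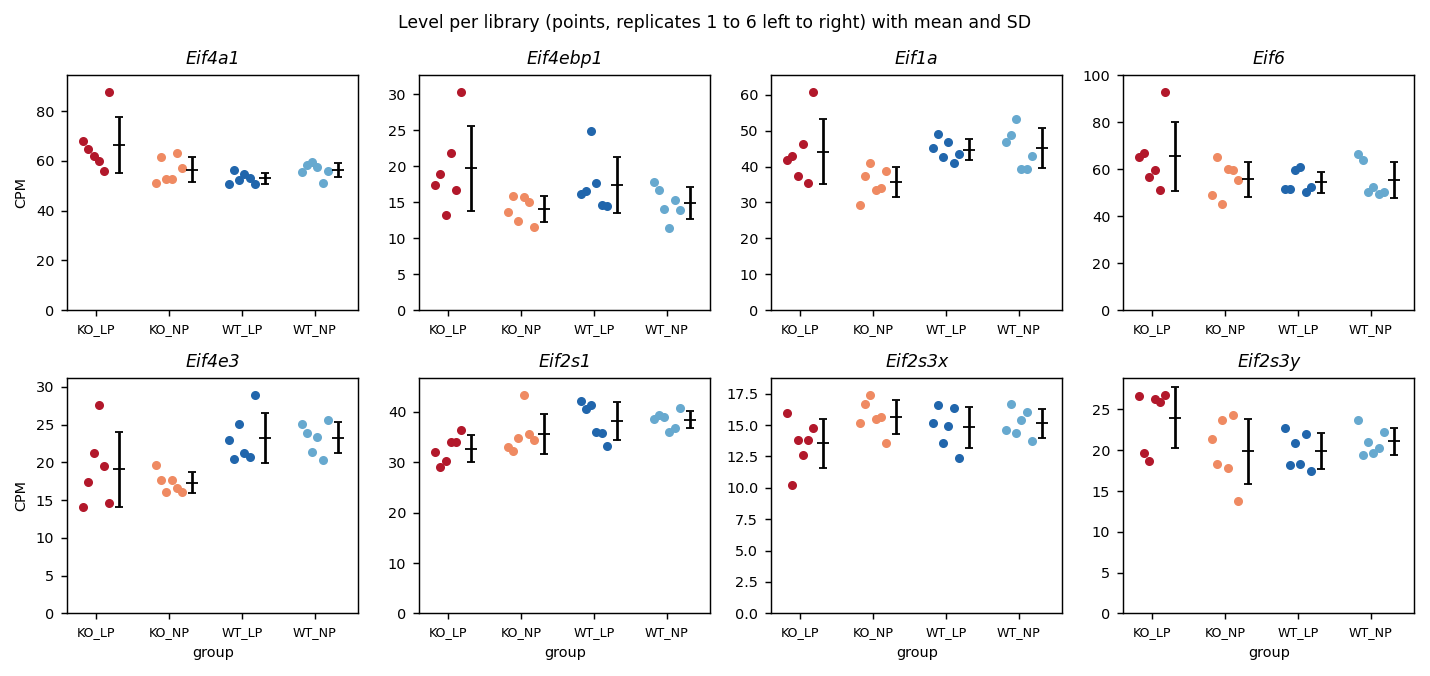
Level in CPM of 8 genes in every library (points, 6 per group, with mean and SD beside them) for KO_LP, KO_NP, WT_LP and WT_NP from left to right. KO_LP 6 is the top point for Eif4a1 at 87.7 CPM. The KO_NP and WT_NP points of Eif4e3 do not overlap, but it was not called there. The share of all genes without such overlap is not given, so the separation is not read as a result.

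The 4E-BP proteins restrain eIF4E until mTORC1 phosphorylates them. Eif4ebp1 had the smallest p of the 53 genes for diet in KO mice. It spanned 13.2 to 30.3 CPM with a median of 18.1 in KO_LP, 11.6 to 15.9 with a median of 14.3 in KO_NP, 14.5 to 24.8 with a median of 16.3 in WT_LP, and 11.4 to 17.8 with a median of 14.7 in WT_NP. In KO mice the LP libraries reached higher than the NP libraries. In WT mice only WT_LP 3, at 24.8 CPM, lay above the highest NP library. The ranges overlapped in both genotypes. The log2 fold was 0.49 ± 0.16 in KO mice (SE, edgeR adjusted p = 0.0616) and 0.22 ± 0.16 in WT mice (edgeR adjusted p near 1). The difference between those effects was 0.27, with a 95% interval of -0.20 to 0.73. In KO mice the gene was called under some alternatives, with an adjusted p of 0.0446 by DESeq2 and 0.0490 when only genes with at least 5 CPM were tested, and also when KO_LP 1, KO_LP 3, WT_NP 1 or WT_LP 3 was left out. Without KO_LP 6, its highest library, the log2 fold was 0.32 (edgeR adjusted p = 0.158), with 1 surrogate variable it was 0.33 (0.493), and without WT_NP 1, KO_LP 4 and KO_LP 6 together it was 0.23 (0.435). In WT mice the log2 fold was 0.09 without WT_LP 3, and the difference between the diet effects was 0.10 without KO_LP 6.

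Eif4ebp2, the other 4E-BP measured, varied widely between mice of 1 group. It spanned 39.3 to 87.5 CPM in KO_LP, 49.4 to 90.2 in KO_NP, 49.8 to 86.6 in WT_LP and 51.7 to 101 in WT_NP. Eif4enif1 encodes 4E-T, which carries eIF4E into the nucleus. Its level was 13.2 ± 1.9 CPM in KO_LP, 11.2 ± 0.9 in KO_NP, 10.7 ± 1.2 in WT_LP and 12.03 ± 2.2 in WT_NP (SD, n = 6). LP was thus set above NP in KO mice and below it in WT mice, with log2 folds of 0.24 and -0.17, the second of which was -0.08 without WT_NP 3. The difference between those diet effects was 0.41, with a 95% interval of 0.08 to 0.74 (edgeR adjusted p = 0.233), which missed the threshold.

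The eIF2 kinases each answer a different stress. Eif2ak4 encodes GCN2, the sensor of uncharged tRNA and so of amino acid shortage. It spanned 8.79 to 11.7 CPM with a median of 10.5 in KO_LP, 7.81 to 10.4 with a median of 8.30 in KO_NP, 8.35 to 10.4 with a median of 9.06 in WT_LP, and 7.30 to 10.4 with a median of 8.78 in WT_NP. All 6 KO_LP libraries lay above the KO_NP mean, and the log2 fold of 0.24 ± 0.10 (SE) was not called (edgeR adjusted p = 0.128). Eif2ak1, the heme-regulated kinase, pointed the other way, with 43.7 to 51.8 CPM in KO_LP and 49.7 to 55.5 in KO_NP and a log2 fold of -0.14 (edgeR adjusted p = 0.138).

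Eif2ak2, the double-stranded RNA sensor PKR, spanned 9.28 to 12.5 CPM with a median of 10.9 in KO_LP and 6.73 to 10.8 with a median of 8.46 in WT_LP. Its log2 fold for KO against WT on LP was 0.35 ± 0.15 (SE, edgeR adjusted p = 0.185), and it was 0.10 with the immune marker average in the model. For diet its log2 fold was 0.21 in KO mice (0.14 without KO_NP 2) and -0.26 in WT mice (-0.17 without WT_NP 1), and the difference of 0.48 had a 95% interval of 0.03 to 0.92 (edgeR adjusted p = 0.284). Eif2ak3 encodes PERK, the kinase of the endoplasmic reticulum, and spanned 7.91 to 17.6 CPM in KO_LP and 5.02 to 12.4 in KO_NP. Its log2 fold of 0.24 had a 95% interval of -0.20 to 0.68, and it was 0.09 without KO_NP 2 and 0.09 without KO_LP 6.

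The target of these kinases is the alpha subunit of eIF2, encoded by Eif2s1. It spanned 29.2 to 36.4 CPM with a median of 33.1 in KO_LP, 32.2 to 43.3 with a median of 34.7 in KO_NP, 33.2 to 42.2 with a median of 38.3 in WT_LP, and 36.1 to 40.7 with a median of 38.8 in WT_NP. All 6 KO_LP libraries lay below the WT_LP mean, and 5 of 6 KO_NP libraries lay below the WT_NP mean, while KO_NP 4 at 43.3 CPM was the highest of all 24 libraries. The log2 fold for KO against WT was -0.22 ± 0.08 on LP (SE, edgeR adjusted p = 0.0981) and -0.11 on NP, with a 95% interval of -0.27 to 0.05. Eif2s2, the beta subunit, had group means within 1.06-fold.

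The gamma subunit has an X and a Y copy, whose coding parts are alike, so how reads were divided between them is uncertain. For diet in KO mice the copies pointed in opposite directions. Eif2s3y had 18.7 to 26.7 CPM with a median of 26.1 in KO_LP and 13.8 to 24.3 with a median of 19.9 in KO_NP, a log2 fold of 0.27 ± 0.12 (SE, edgeR adjusted p = 0.144). Eif2s3x had 10.2 to 15.9 CPM with a median of 13.8 in KO_LP and 13.5 to 17.4 with a median of 15.6 in KO_NP, a log2 fold of -0.22 ± 0.10 (SE, edgeR adjusted p = 0.144). Neither was called. Eif2s3y had a log2 fold of 0.27 for KO against WT on LP, with 4 of 6 KO_LP libraries above the WT_LP mean (edgeR adjusted p = 0.193).

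eIF2B reloads eIF2 with GTP and is the step that phosphorylated eIF2 blocks. All 5 subunit genes had a log2 fold under 0 for diet in KO mice, with a median of -0.12, and none was called. Their summed level was 113 to 137 CPM with a median of 127 in KO_LP, 127 to 150 with a median of 137 in KO_NP, 124 to 145 with a median of 135 in WT_LP, and 126 to 150 with a median of 138 in WT_NP. The groups overlapped. Eif2b5, the catalytic subunit, had 23.7 to 31.4 CPM in KO_LP, 27.7 to 34.9 in KO_NP, 29.3 to 34.9 in WT_LP and 32.3 to 40.6 in WT_NP. Its log2 fold was -0.16 for diet in KO mice (edgeR adjusted p = 0.180) and -0.20 for KO against WT on LP (edgeR adjusted p = 0.146). Eif2b3 had a log2 fold of 0.20 for KO against WT on NP (edgeR adjusted p = 0.341).

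The cap binding group held the gene with the smallest adjusted p of the 53 for KO against WT on NP, which was not called. Eif4e3 encodes a divergent eIF4E homolog. It spanned 16.0 to 19.6 CPM with a median of 17.1 in KO_NP and 20.3 to 25.6 with a median of 23.6 in WT_NP. No KO_NP library reached the WT_NP range. On LP the values were 14.1 to 27.5 CPM with a median of 18.5 in KO_LP and 20.5 to 28.9 with a median of 22.1 in WT_LP, and these ranges overlapped. The log2 fold for KO against WT was -0.43 ± 0.12 on NP (SE, edgeR adjusted p = 0.120) and -0.28 ± 0.12 on LP (SE, edgeR adjusted p = 0.197). It was called on NP when only the 12 compared libraries were fitted (adjusted p = 0.0327). On LP it was called once 1 surrogate variable (0.0262) or the immune marker average (0.0420) entered the model. No fit that left 1 library out called Eif4e3 in either comparison. The edgeR adjusted p reached 0.246 on NP without WT_NP 6 and 0.372 on LP without WT_LP 6. On LP the log2 fold ran from -0.41 to -0.20 across those fits. When only the compared libraries were fitted on LP the adjusted p was 0.336. An annotated transcript of Gm20696 shares exons with Eif4e3 on the same strand, so reads of the pair may not be separable.

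Eif4e2 encodes the homolog 4EHP that competes for caps. It had 41.0 to 45.6 CPM in KO_NP and 45.6 to 50.9 in WT_NP, also without overlap. The share of all genes without such overlap is not given here, so neither separation is read as a result. The gap was narrower than the printed digits, and the log2 fold was -0.16 (edgeR adjusted p = 0.331). WT_LP was also set below WT_NP for this gene, with 37.3 to 46.5 CPM and a log2 fold of -0.15 (edgeR adjusted p near 1). Eif4e itself had 50.8 to 71.5 CPM in KO_LP, 64.2 to 71.6 in KO_NP, 56.7 to 65.9 in WT_LP and 55.9 to 72.5 in WT_NP. The main scaffold gene Eif4g1 had 189 to 229 CPM in KO_LP and 173 to 249 in KO_NP, and its log2 fold of -0.03 had a 95% interval of -0.20 to 0.14. Eif4g2, which encodes the cap-independent scaffold DAP5 and had the most counts of the 53 genes, averaged 695 ± 66 CPM in KO_LP, 764 ± 35 in KO_NP, 718 ± 85 in WT_LP and 757 ± 79 in WT_NP (SD, n = 6).

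Among the genes of start codon selection, Eif1a (chromosome 18) differed most. It spanned 35.4 to 60.8 CPM with a median of 42.5 in KO_LP, 29.4 to 41.0 with a median of 35.8 in KO_NP, 41.0 to 49.1 with a median of 44.4 in WT_LP, and 39.3 to 53.3 with a median of 44.9 in WT_NP. The KO_NP group was the low one, while the other 3 groups had similar medians. The log2 fold was -0.34 ± 0.11 for KO against WT on NP (SE, edgeR adjusted p = 0.168) and 0.30 ± 0.11 for diet in KO mice (SE, edgeR adjusted p = 0.0759). Without KO_LP 6 the log2 fold for diet in KO mice was 0.19 (edgeR adjusted p = 0.200), and without WT_NP 1, KO_LP 4 and KO_LP 6 together it was 0.14 (0.495). The difference between the diet effects was 0.32, with a 95% interval that began at 0.00 and ended at 0.63 (edgeR adjusted p = 0.307), and it was 0.20 without KO_LP 6. Eif1ax, its X-linked counterpart, had a log2 fold of -0.14 for diet in KO mice (edgeR adjusted p = 0.167).

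Eif1b, a paralog of the scanning factor gene Eif1, had the smallest p for diet in WT mice. It had 74.0 to 91.4 CPM with a median of 81.7 in WT_LP and 77.0 to 109 with a median of 92.6 in WT_NP. The ranges overlapped, and the log2 fold of -0.19 was not called (edgeR adjusted p near 1). In KO_NP its median was 81.5 CPM, and the log2 fold for KO against WT on NP was -0.18 (edgeR adjusted p = 0.349).

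eIF3, the scaffold around the small subunit, contributed 14 genes and no call. Their summed level was 1417 to 1600 CPM in KO_LP, 1423 to 1572 in KO_NP, 1470 to 1594 in WT_LP and 1412 to 1591 in WT_NP. For diet, 7 of the 14 log2 folds were above 0 in KO mice and 5 of 14 in WT mice. The gene set apart was Eif3j2, a near-identical copy of Eif3j1 on chromosome 18, with 0.34 to 0.92 CPM in KO_LP, 0.47 to 1.16 in KO_NP, 0.72 to 1.21 in WT_LP and 0.80 to 1.10 in WT_NP. Its log2 fold for KO against WT on LP was -0.72 ± 0.25 (SE, edgeR adjusted p = 0.103). Its counts averaged 12.3 per library, and reads could be split between the copies, so its values are uncertain. Eif3j1 had 47.5 to 68.0 CPM in KO_LP and 54.6 to 73.1 in WT_LP.

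The last group acts at or after subunit joining. Eif6, which keeps the large subunit apart from the small one until it is released, spanned 51.1 to 92.9 CPM with a median of 62.5 in KO_LP, 45.4 to 65.4 with a median of 57.7 in KO_NP, 50.5 to 60.8 with a median of 52.0 in WT_LP, and 49.4 to 66.6 with a median of 51.4 in WT_NP. The highest value was again KO_LP 6, and the log2 fold for KO against WT on LP was 0.27 ± 0.12 (SE, edgeR adjusted p = 0.194). Without KO_LP 6 it was 0.14 (edgeR adjusted p = 0.455). Eif5a, whose hypusinated product helps ribosomes past difficult sequences, averaged 178 ± 17 CPM in KO_LP, 195 ± 16 in KO_NP, 197 ± 20 in WT_LP and 192 ± 8 in WT_NP (SD, n = 6). Its rarer paralog Eif5a2 had 1.35 to 4.64 CPM in KO_LP and 0.89 to 3.72 in KO_NP, the widest relative spread of the 53 genes.

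**Figure D4:**
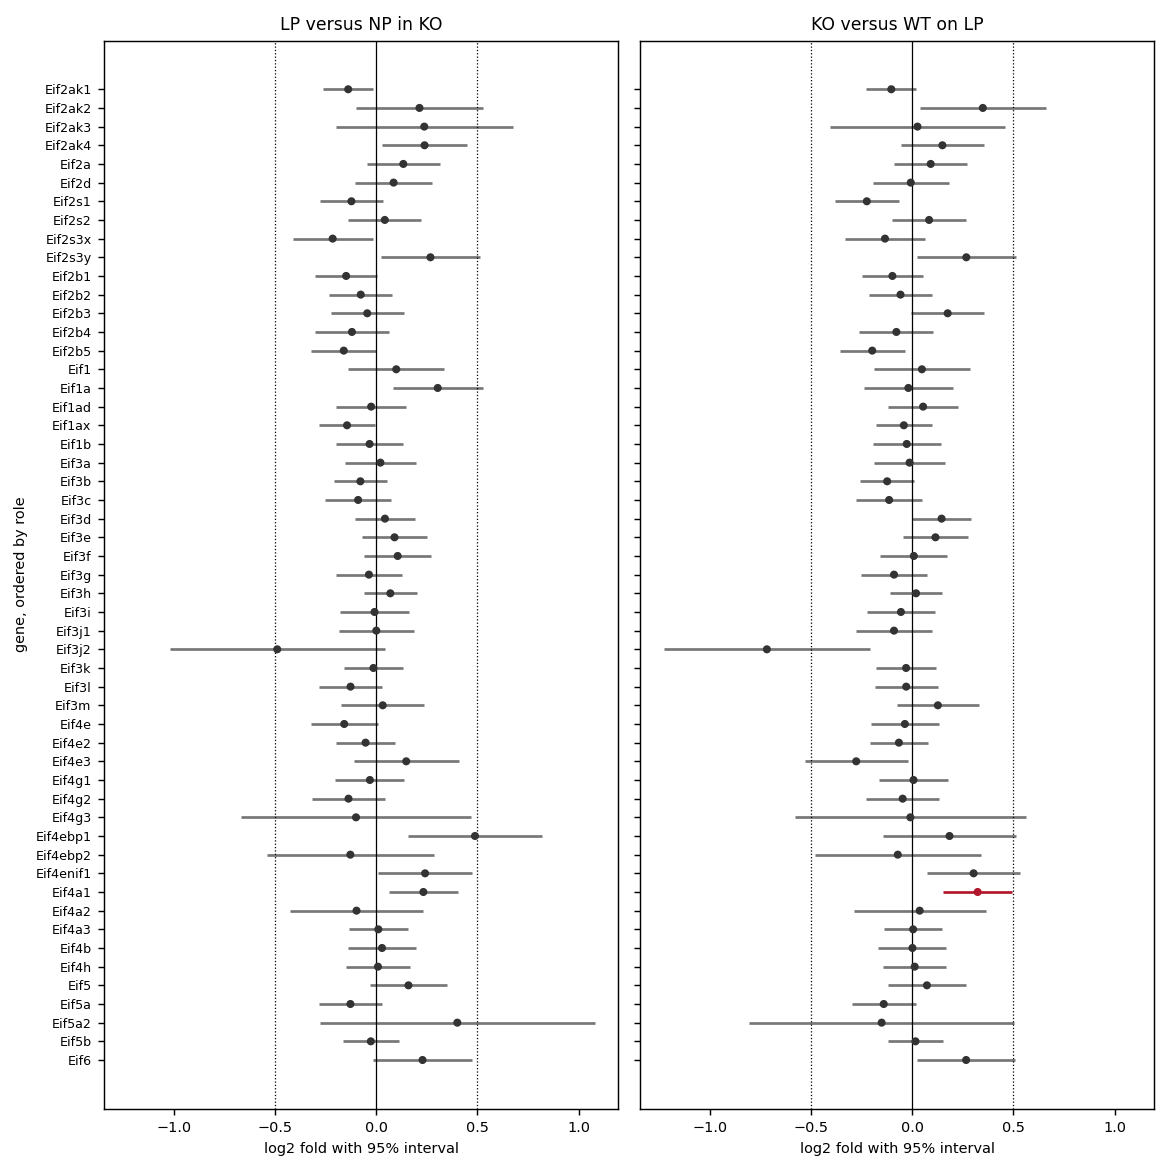
Log2 fold with its 95% interval for the 53 genes, ordered by role, for LP against NP in KO mice (left) and KO against WT on LP (right); dotted lines stand at 0.5 either side of 0. Only Eif4a1 on the right (red, 0.32) was called, and the widest intervals belong to Eif3j2, Eif5a2, Eif4g3 and Eif2ak3.

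Some libraries were high or low for many of the genes at once. KO_LP 6 was the highest library of its group for 24 of the 53 genes, while no other KO_LP library was highest for more than 10. In the other groups the number of genes highest in a single library reached 15 in KO_NP, 15 in WT_LP and 16 in WT_NP. The share over all genes is not given here, so these counts are not read as particular to initiation factor genes. Of the gene lists described below, KO_LP 6 was also highest of its group for the sums of initiation partners, mTORC1 genes and genes around eIF2 phosphorylation. For elongation and termination factors KO_LP 1 was highest. KO_LP 6 was also the KO_LP library with the lowest proximal tubule and the highest injury marker sum. A second pattern crossed the groups and was noticed after the values were seen. Eif4g3, an eIF4G scaffold gene, had its lowest value of each group in KO_LP 2, KO_NP 2, WT_LP 4 and WT_NP 2. Eif2ak3 was lowest in the same library in 4 of 4 groups and Eif4a2 in 3 of 4, while 33 of the 53 genes shared no such library with Eif4g3. Outside the 53 genes, Senp3 and the summed partners of initiation were lowest in the same library as Eif4g3 in 4 of 4 groups. The share of all genes that did so is not given here, so the pattern is not read as particular to initiation factor genes. Eif4g3 spanned 96.8 to 226 CPM in KO_LP, 71.6 to 272 in KO_NP, 97.5 to 223 in WT_LP and 94.0 to 210 in WT_NP, so each group held both low and high mice. Its log2 fold for KO against WT on NP was 0.28 with a 95% interval of -0.29 to 0.85, and it was 0.16 to 0.45 when each library was left out, lowest without KO_NP 3 and highest without KO_NP 2.

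**Figure D5:**
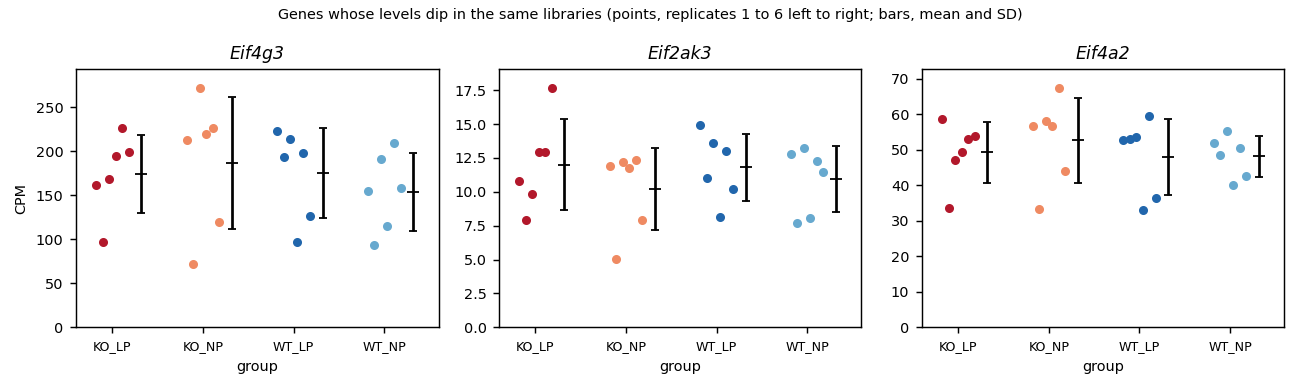
Level in CPM of Eif4g3, Eif2ak3 and Eif4a2 in every library of KO_LP, KO_NP, WT_LP and WT_NP (points, with mean and SD beside them). The low points recur in the same libraries across genes, such as KO_NP 2, with 71.6 CPM for Eif4g3 and 33.3 for Eif4a2.

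Other genes of the pathway were followed by list. Of 19 partners of initiation, 1 was called for KO against WT on LP, where 2.93% of all genes were, and their median log2 fold in that comparison was -0.08, beside 0.02 over all genes. Paip1 encodes a poly(A)-binding protein partner that stimulates translation. It averaged 53.6 ± 3.3 CPM in KO_LP, against 63.8 ± 3.0 in WT_LP (SD, n = 6). Its log2 fold was -0.25 (edgeR adjusted p = 0.0208). The call was lost without KO_LP 4 (0.0606), WT_LP 1 (0.0590) or WT_LP 2 (0.05002), with the immune marker average (0.143) or 1 surrogate variable (0.0620) in the model, without WT_NP 1, KO_LP 4 and KO_LP 6 together (0.0722), and in a fit of the compared libraries alone (0.0676). Mcts1, a ribosome recycling factor gene, had a log2 fold of 0.27 for KO against WT on NP (edgeR adjusted p = 0.104). It was called with DESeq2 (0.0403) but in no fit that left a library out.

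Of 17 genes of mTORC1 and its regulators, 1 was called for diet in KO mice, where 7.17% of all genes were, and their median log2 fold in that comparison was -0.01, beside 0.03 over all genes. Mtor, the kinase of the complex, fell to 86.8 ± 11.6 CPM in KO_LP, against 120 ± 19 in KO_NP (SD, n = 6), a log2 fold of -0.46 (edgeR adjusted p = 0.0314). The call did not hold without KO_NP 1 (0.0567), KO_NP 4 (0.0532), KO_NP 5 (0.0769), KO_LP 4 (0.0915) or KO_LP 6 (0.0558). With the immune marker average in the model the log2 fold was -0.28 (edgeR adjusted p = 0.363), with 1 surrogate variable it was -0.24 (0.424), and without WT_NP 1, KO_LP 4 and KO_LP 6 together it was -0.36 (0.116). For diet in KO mice all 14 macrophage markers had a log2 fold above 0 (5 called) and 0 of 13 proximal tubule markers did (2 called lower), and their part in the Mtor result was not tested. Tsc2, which restrains mTORC1, had a log2 fold of -0.26 for diet in KO mice (edgeR adjusted p = 0.0597). It was called with DESeq2 (0.0282) and without KO_LP 1 (0.0246), KO_LP 3 (0.0437) or WT_NP 1 (0.0492). With 1 surrogate variable its edgeR adjusted p was 0.523.

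No gene was called among 14 that control or read eIF2 phosphorylation, or among 17 elongation and termination factors (edgeR). For diet in KO mice 11 of the 14 and 6 of the 17 had a log2 fold above 0, with medians of 0.18 and -0.06. Atf4, the transcription factor translated when eIF2 is phosphorylated, had 113 to 207 CPM with a median of 124 in KO_LP and 99.6 to 115 with a median of 106 in KO_NP. Its highest value was KO_LP 6, and the log2 fold was 0.36 ± 0.12 (SE, edgeR adjusted p = 0.0652). Without KO_LP 6 it was 0.20 (edgeR adjusted p = 0.170). The gene was called when only genes with at least 5 CPM were tested (0.0471) and without KO_LP 1 (0.0370) or KO_LP 3 (0.0497). Sesn2, a leucine sensor gene and ATF4 target, averaged 14.6 ± 2.8 CPM in KO_NP and 30.1 ± 16.1 in WT_NP (SD, n = 6), a log2 fold of -1.03 (edgeR adjusted p = 0.0673). Sesn2 was called with DESeq2 (0.00680), with voom (0.0279), with the immune marker average in the model (0.0374), and without WT_NP 1, KO_LP 4 and KO_LP 6 together (0.0180). It was also called without KO_LP 6 (0.0372), WT_NP 1 (0.0321) or WT_NP 2 (0.0348) alone. Those were the only 3 of 24 fits leaving a library out that called it. Across the 24 fits its log2 fold ran from -1.15 to -0.72, and the edgeR adjusted p reached 0.169 without WT_NP 6. When only the compared libraries were fitted the adjusted p was 0.139. The mitochondrial elongation factor gene Tufm and the mitochondrial recycling factor gene Gfm2 had log2 folds of -0.38 and -0.30 for diet in KO mice (edgeR adjusted p = 0.0673 and 0.0870). Tufm was called with DESeq2 (0.0394) and without KO_LP 1 (0.0268). With 1 surrogate variable the edgeR adjusted p was 0.711 for Tufm and 0.605 for Gfm2.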

How the data were processed

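Total RNA of kidney cortex was made into Lexogen QuantSeq 3′ libraries, per the labels' protocols, so a count stands for a 3′ tag and levels of different genes are not compared. The authors deposited raw counts per gene on GRCm38 and, as a signal, the same counts divided by a size factor per library; DESeq2 1.22.2 is named in the submitters' processing notes, and no source used here names the aligner, the counter or whether strand was used. Exons of 12 of the 53 genes overlap another measured gene. Raw counts were fitted in R 4.3.3 with edgeR 4.0.16 (TMM, filterByExpr, robust quasi-likelihood, 24 libraries, 4 group means), with two-sided tests and Benjamini-Hochberg adjustment over 15165 genes in 5 comparisons that share groups. CPM uses TMM library sizes. A standard error is the log2 fold divided by the root of F. Each p sets a difference between group means against the spread between mice within groups, which was estimated from all 24 libraries together. Alternatives used DESeq2 1.42.0, limma 3.58.1 (log2 of the deposited values plus 1) and sva 3.50.0. The fit was tested on simulated data. Gene coordinates are from GENCODE M21. Members, gene lists and the rule for naming genes (every call, the 3 smallest p per comparison and a set list) were chosen with earlier results of these data known; Eif4g3, Eif5a2, Eif1ax, Eif2b3, Eif2s2, Eif3j1, Eif4a3, Eif4b and Eif4h were named outside it after their values were seen. The labels name no batch.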

Additional observations from a re-analysis of the deposited data

Results flagged for a closer look

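A library was singled out when its gap to the nearest library was large against its group's range by Dixon's criterion at the 95% level. Of 92 groups of 6 libraries checked, over 23 genes, 3 held such a library. Chance alone could single out as many at that level. Eif4a1 in KO_LP 6 stood at 87.7 CPM, while the other KO_LP libraries had 56.1 to 67.8 CPM. Eif2s1 in KO_NP 4 stood at 43.3 CPM, while the other KO_NP libraries had 32.2 to 35.5 CPM. Eif4ebp1 in WT_LP 3 stood at 24.8 CPM, while the other WT_LP libraries had 14.5 to 17.6 CPM.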

How the results depend on the processing

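Several alternatives moved the number of initiation factor genes called. For LP against NP in KO mice it was 2 when only genes with at least 5 CPM in 6 libraries were tested (Eif4a1 and Eif4ebp1), 1 with DESeq2 (Eif4ebp1), and 0 to 1 when each library was left out in turn. For KO against WT on NP it was 1 in a fit of the compared libraries alone (Eif4e3). For KO against WT on LP it was 2 with 1 surrogate variable or the immune marker average in the model (Eif4a1 and Eif4e3), 0 in the fit of the compared libraries alone, with limma on the normalized values, and without WT_NP 1, KO_LP 4 and KO_LP 6 together, and 0 to 1 when each library was left out. The cause was not tested. The Eif4a1 call held under 8 of 11 other settings and in 20 of 24 fits that left a library out. Among the folds printed, 3 changed sign. Eif2ak2 for diet in KO mice was -0.0643 with the surrogate variable and -0.0539 with the immune marker average. Eif4g1 in the same comparison was 0.00662 with voom, 0.0210 with the surrogate variable, 0.0162 with the immune marker average, 0.0238 without the 3 libraries, and -0.0906 to 0.00174 when each library was left out. The difference of the diet effects for Eif4ebp1 was -0.0545 without the 3 libraries. All 265 folds of the 53 genes were recomputed, and 118 changed sign at least once, the largest of them 0.40 in size, none while called. Calls over all genes for diet in KO mice numbered 1087, against 1846 with DESeq2, 1693 with voom, 47 with the immune marker average, 36 without the 3 libraries and 4 with the surrogate variable. For KO against WT on LP they numbered 445, against 910, 877, 241, 200 and 290 under the same settings, and 161 in the fit of the compared libraries alone. For KO against WT on NP they numbered 87, against 246 with DESeq2 and 140 with voom. For diet in WT mice DESeq2 called 16, voom 6 and the model with the immune marker average 3, and for the difference of the diet effects DESeq2 called 117, where edgeR called 0. No paired analysis was possible because the labels give no replicate numbers, and the numbers used here only name libraries. Depth limits Eif3j2 most, at 12.3 counts per library.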
